A study of Homo sapiens with 6 samples.

Results

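MALL, MAL2, CMTM3, CMTM4, CMTM6, CMTM7, CMTM8, CAV1 and CAV2 are 9 of the 16306 genes in the deposited gene table. MALL was chosen by its value in these data: among the 6106 genes with a lower level after RBM10 knockdown, it had the smallest unadjusted p. The other 8 were added as members of the same or a partnered protein family, with earlier results of these data known. The values of the knockdown comparison are therefore a description for MALL. All 9 passed the filter on low counts, as did 12620 genes in all.

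MALL and MAL2 belong to the MAL family of small raft proteins, and CMTM3, CMTM4, CMTM6, CMTM7 and CMTM8 belong to the CKLF-like family. Both families share the MARVEL domain, a bundle of membrane-spanning helices found in proteins of cholesterol-rich membrane, vesicle transport and cell junctions. CAV1 and CAV2 encode caveolins, the coat proteins of caveolae, which are small flask-shaped pits of the plasma membrane, and the MALL protein (also called BENE) binds caveolin-1. Several CMTM proteins act on the surface level of receptors and ligands: CMTM6 and CMTM4 stabilise PD-L1, and CMTM3, CMTM7 and CMTM8 have been linked to EGFR uptake.

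RNA sequencing was done on PC9, a line grown from a human lung adenocarcinoma whose EGFR gene carries an activating deletion. The groups were 3 libraries that received non-targeting control shRNA (sh-NC) and 3 whose shRNA targeted the splicing regulator RBM10 (shRBM10). All 6 libraries share this EGFR deletion, and the time after knockdown and the shRNA sequence used are not given for them. Below, values in the control follow the order of sh-NC replicates 1, 2 and 3, and values in the knockdown that of shRBM10 libraries A, B and C. A is replicate 1, while B and C carry no number because no sample title matches their table columns. The sources do not say whether the libraries of a group came from separate cultures, so p-values measure only the spread between these libraries, which may be technical.

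Total counts per library were 16606401 to 18864241. sh-NC replicate 2 stood apart, with a TMM factor of 0.738 against 1.03 to 1.08 in the other libraries (TMM is edgeR's correction for a few abundant genes taking up reads), and in shRBM10 libraries A and B the level of a gene followed its GC content. Genes under 40% GC had a median log2 level of 1.20, 0.87 and 0.13 above the sh-NC mean in libraries A, B and C, and genes over 55% GC had -0.53, -0.39 and -0.045. In sh-NC replicates 1, 2 and 3 these medians were 0.14, -0.27 and 0.13 under 40% GC. Over 55% GC they were -0.044, 0.091 and -0.054, so sh-NC replicate 2 had a weaker trend in the opposite direction. For this reason the log2 fold change of each of the 9 genes is also given with every library's GC trend removed. RBM10 itself was at 74.1 ± 8.45 CPM (TMM-normalised counts per 1000000 counts) in the control and at 31.3 ± 4.65 CPM in the knockdown (SD, n = 3 each), a log2 fold change of -1.24 (standard error 0.23, edgeR adjusted p = 0.1). The 8 epithelial markers summed to between 24428 and 55907 CPM. The endothelial markers, which matter here because endothelium is rich in caveolae, summed to 10.3, 5.36 and 9.68 CPM in the control and to 2.65, 3.83 and 3.68 CPM in the knockdown. Nearly all of this was CDH5 and VWF, and the other 4 endothelial markers were at most at 0.166 CPM. Fibroblast and astrocyte markers summed to at most 13.9 CPM, the leukocyte sum of 101 to 181 CPM was nearly all CD68, and the photoreceptor sum, looked at because the protocol text names retinas, was at most 8.96 CPM. The part of any of these in the results was not tested.

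MALL was about 3 times lower in the knockdown than in the control. In bulk RNA, fewer cells with a transcript and less of it per cell cannot be told apart. The gene lies on chromosome 2, from 110083870 to 110116566 on the minus strand of GRCh38 (GENCODE 29). RefSeq gives it a start further out. NM_005434, the transcript that took 98.8% or more of MALL counts in every library, starts inside this point. Almost none of the counts were therefore assigned to the outer start. The exon-free stretch before it is shown as a description, and any part of it in the lower MALL level was not tested. The segment chr2:110118140-110118389 on the minus strand (GRCh38.p14, RefSeq, written 5′ to 3′) holds no GC box, the 6 bases GGGCGG on either strand that Sp1-family factors bind:

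MALL upstream start: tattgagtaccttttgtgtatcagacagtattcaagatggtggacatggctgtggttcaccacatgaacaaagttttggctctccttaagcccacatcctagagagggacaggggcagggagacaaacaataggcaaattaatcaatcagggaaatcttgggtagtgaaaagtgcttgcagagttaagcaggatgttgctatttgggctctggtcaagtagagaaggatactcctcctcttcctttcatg

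The inner RefSeq start of MALL, at 110115822, has 1 GC box in the 250 bases before it. Those bases lie inside the first exon that GENCODE gives the main MALL transcript, so they are not shown. Of all 35116 RefSeq windows of 250 bases, 42.6% hold at least 1 GC box. A match of letters is a description only.

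The control libraries held 1025, 705 and 1097 MALL counts, and the knockdown libraries 283, 327 and 355. Normalised, these were 50.6, 52.5 and 53.9 CPM against 15.8, 17.1 and 18.6 CPM. On this TMM-normalised scale each group lay within a narrow range, and the lowest control value was far above the highest knockdown value. The authors' TPM, which divides by transcript length and library size, was 32.9, 17.3 and 35.6 in the control and 10.5 in library A. Scaled by library size only, the log2 fold change was -1.49 (edgeR adjusted p = 0.202). The TMM-normalised means were 52.3 ± 1.65 CPM and 17.1 ± 1.37 CPM (SD, n = 3 each), which is 3.05-fold lower. The log2 fold change was -1.61 with a standard error of 0.22. sh-NC replicate 2, which stood apart over all genes, had a TMM-normalised MALL level between those of the other control libraries, but the lowest TPM of the control.

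The unadjusted p that selected MALL was 3.3e-05, and its edgeR adjusted p over 12620 genes was 0.0861. The gene that followed among the falls was ARNT2, with an unadjusted p of 5.7e-05. MALL was 1st among the falls in 9 of the 15 alternative analyses and never below 6th. These refit the libraries that chose MALL, so its place and the MALL values that follow are a description. After removal of the GC trend the MALL levels were 49.1, 48.9 and 51.6 CPM against 17.6, 18.8 and 17.5 CPM. Its log2 fold change was then -1.47 (standard error 0.14, edgeR adjusted p = 0.0448). Among the 1953 tested genes with a GC content of 50 to 55%, where the median log2 fold change was -0.17, 7 had a lower value than MALL.

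**Figure D1:**
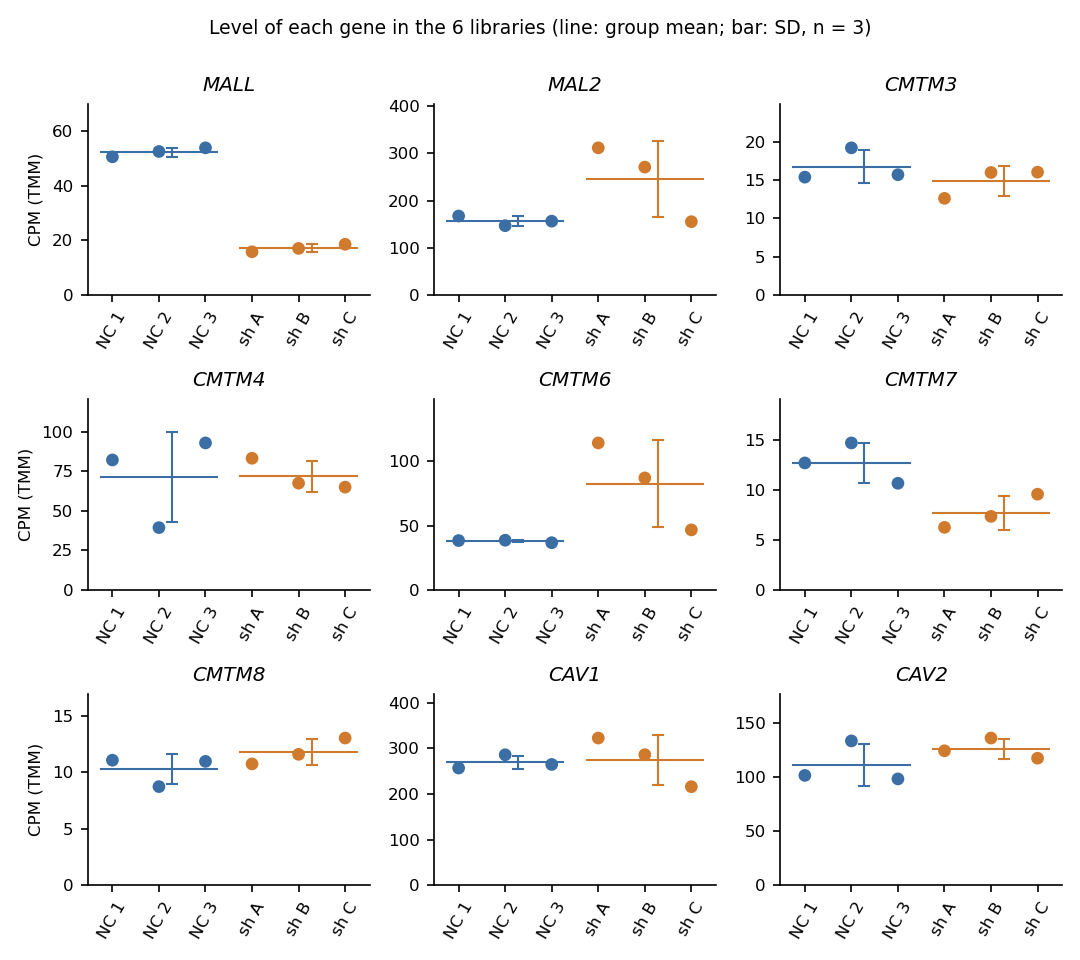
TMM-normalised CPM (vertical axes, from 0) of the 9 genes in each library, sh-NC in blue and shRBM10 in orange, with the group mean as a line and the SD (n = 3) as a bar. MALL and CMTM7 were lower in every shRBM10 library than in every sh-NC library, CMTM6 was higher, and the groups overlapped for the other 6 genes.

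MAL2, the closest relative of MALL among the 9 and a protein of transcytosis in polarised epithelia, did not share its pattern. MAL2 (chromosome 8, GC content 39.4%) was at 167, 147 and 156 CPM in the control and at 312, 271 and 155 CPM in the knockdown. Libraries A and B were high and library C was at the control level, so the groups overlapped. The log2 fold change was 0.65 (standard error 0.28, edgeR adjusted p = 0.197) and -0.096 (standard error 0.16, edgeR adjusted p = 0.745) with the GC trend removed. MALL was chosen for its fall in these libraries, so its ratio to MAL2 is a description. Within a library, where scaling cancels, MALL had 0.302, 0.358 and 0.345 counts for each MAL2 count in the control, against 0.0507, 0.0629 and 0.1195 in the knockdown. Removing the GC trend gave ratios of 0.260, 0.214 and 0.285 against 0.0950, 0.0968 and 0.0974, so the shRBM10 libraries, which had differed from each other by more than 2 times, came to nearly the same value.

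CMTM6, CMTM7 and CMTM8 lie side by side on chromosome 3 with no other protein-coding gene between them, and CMTM3 and CMTM4 stand 857 bases apart on chromosome 16. CMTM6 is the membrane protein that keeps PD-L1 from lysosomal breakdown. The control libraries held 780, 520 and 750 CMTM6 counts, and the knockdown libraries 2047, 1672 and 895. As levels these were 38.5, 38.8 and 36.8 CPM against 114, 87.2 and 46.8 CPM. All shRBM10 libraries were above all control libraries, library A the most and library C only slightly. The means were 38.0 ± 1.04 and 82.8 ± 34.0 CPM (SD, n = 3 each), a log2 fold change of 1.12 (standard error 0.31, edgeR adjusted p = 0.153) that was 0.82 without library A. CMTM6 has a GC content of 39.4%, and the 1964 tested genes of at most 40% GC had a median log2 fold change of 0.74. With the GC trend removed the levels were 43.5, 60.3 and 42.5 CPM against 67.8, 62.5 and 54.2 CPM. The groups then overlapped, with sh-NC replicate 2 above library C. The log2 fold change was 0.34 (standard error 0.19, edgeR adjusted p = 0.358).

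CMTM7, which has been linked to Rab5 activity and EGFR uptake, was lower in every knockdown library than in every control library, with and without the GC trend. It was at 12.7, 14.7 and 10.7 CPM in the control and at 6.26, 7.35 and 9.57 CPM in the knockdown, with 112 to 257 counts per library. The groups did not overlap, with library C of shRBM10 closest to the controls. The means were 12.7 ± 2.01 and 7.73 ± 1.69 CPM (SD, n = 3 each), a log2 fold change of -0.71 (standard error 0.29, edgeR adjusted p = 0.188). With the GC trend removed it was -0.66 (standard error 0.21, edgeR adjusted p = 0.210), and the groups still did not overlap. The 68 bases chr3:32391603-32391670 (plus strand, GRCh38.p14, RefSeq), the part of the CMTM7 window that lies before its first GENCODE exon, are shown because CMTM7 was the other member below all controls:

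CMTM7 upstream: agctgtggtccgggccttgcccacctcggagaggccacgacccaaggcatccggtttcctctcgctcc

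This stretch holds no GC box, while the full 250-base window of CMTM7 holds 5. CMTM6 also has 5 GC boxes in its window. Any part of these letters in the levels of CMTM7 and CMTM6 was not tested. None of the 250-base windows of MALL, CMTM3, CMTM4, CMTM6, CMTM7, CMTM8, CAV1 and CAV2 held a TATA box with the letters TATAAA, the letters CCAAT of the box of that name, or the AP-1 site TGANTCA on either strand, which 10.7%, 32.0% and 6.57% of all windows hold.

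Ratios of CMTM7 to its neighbours within a library use the same CMTM7 counts as above. The ratio to CMTM6 also holds the CMTM6 log2 fold change of 1.12, beside -0.71 for CMTM7. There were 0.329, 0.379 and 0.289 CMTM7 counts for each CMTM6 count in the control, against 0.0547, 0.0843 and 0.204 in the knockdown. The mean log2 ratio was 1.75 lower in shRBM10, and 1.01 lower with the GC trend removed. For CMTM8, which has nearly the GC content of CMTM7 (52.6% against 51.5%), there were 0.872, 0.594 and 1.03 CMTM8 counts per CMTM7 count in the control, against 1.71, 1.57 and 1.36 in the knockdown. The mean log2 ratio of CMTM8 to CMTM7 was 0.93 higher in shRBM10, and 0.98 with the GC trend removed. Neither ratio overlapped between groups. Each gave p = 0.1 in a two-sided exact permutation test, the smallest that 3 against 3 libraries allow. This was 0.2 after adjustment over the 4 pairs of chromosomal neighbours (same test). Both ratios hold the same CMTM7 counts, so they are not separate results. The share of all gene pairs without overlap was not computed. Of single genes tested, 13.8% were higher and 16.2% lower without overlap. The annotated spans of CMTM7 and CMTM6 overlap by 1756 bases on opposite strands, but the transcript that took 94.2 to 98.7% of the CMTM7 counts ends before the overlap. Whether reads were counted by strand is not given in the sources used here.

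CMTM8 itself, a gene linked to EGFR uptake and apoptosis, was at 11.1, 8.72 and 11.0 CPM in the control and at 10.7, 11.6 and 13.0 CPM in the knockdown, and the groups overlapped. Its log2 fold change was 0.20 (standard error 0.27, edgeR adjusted p = 0.637). With the GC trend removed it was 0.30 (edgeR adjusted p = 0.369) and all shRBM10 libraries lay above the controls, as they did for 1654 of 12620 genes in this setting. CMTM3, another gene linked to EGFR trafficking, was at 15.4, 19.2 and 15.7 CPM against 12.6, 16.0 and 16.0 CPM, a log2 fold change of -0.17 (standard error 0.26, edgeR adjusted p = 0.681). Its groups overlapped as well, and with the GC trend removed the sign turned to 0.054.

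CMTM4, the closest relative of CMTM6 and also a PD-L1 partner, varied more within sh-NC than between the groups. The control libraries held 1664, 529 and 1891 CMTM4 counts, or 82.1, 39.4 and 92.9 CPM. In the knockdown CMTM4 was at 83.2, 67.5 and 65.0 CPM, between the low and the high control values. The log2 fold change was 0.0070 (standard error 0.32, edgeR adjusted p = 0.990), -0.37 without sh-NC replicate 2 (edgeR adjusted p = 0.230) and -0.33 with the GC trend removed (edgeR adjusted p = 0.514). In the ratio of CMTM3 to CMTM4 counts the groups overlapped, with a difference of -0.27 in the mean log2 ratio (two-sided exact permutation test, p = 0.8) that turned to 0.31 with the GC trend removed (same test, p = 0.6).

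The caveolins differed little between groups, and their sign turned with the GC trend removed. CAV1 encodes the caveolin that builds the caveolar coat, and CAV2 its partner, which needs caveolin-1 to reach the surface. They stand 16243 bases apart on chromosome 7. CAV1 was at 257, 286 and 265 CPM in the control and at 322, 286 and 216 CPM in the knockdown, so that library A lay above and library C below the controls. Its log2 fold change was 0.031 (standard error 0.24, edgeR adjusted p = 0.941). CAV1 without the GC trend was at 278, 332 and 283 CPM against 256, 253 and 227 CPM, with a log2 fold change of -0.28 (standard error 0.16, edgeR adjusted p = 0.359). These groups no longer overlapped, and in this setting 2210 of 12620 genes were lower without overlap. CAV2 was at 102, 134 and 98.5 CPM in the control and at 125, 136 and 118 CPM in the knockdown, where the control replicate 2 was as high as library B. The log2 fold change of CAV2 was 0.18 (standard error 0.22, edgeR adjusted p = 0.604) and -0.46 with the GC trend removed (standard error 0.30, edgeR adjusted p = 0.411). There were 0.396, 0.468 and 0.372 CAV2 counts per CAV1 count in the control, against 0.386, 0.477 and 0.545 in the knockdown (difference of mean log2 ratios 0.18, two-sided exact permutation test, p = 0.4), and the difference was -0.18 with the GC trend removed (same exact test, p = 0.5).

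**Figure D2:**
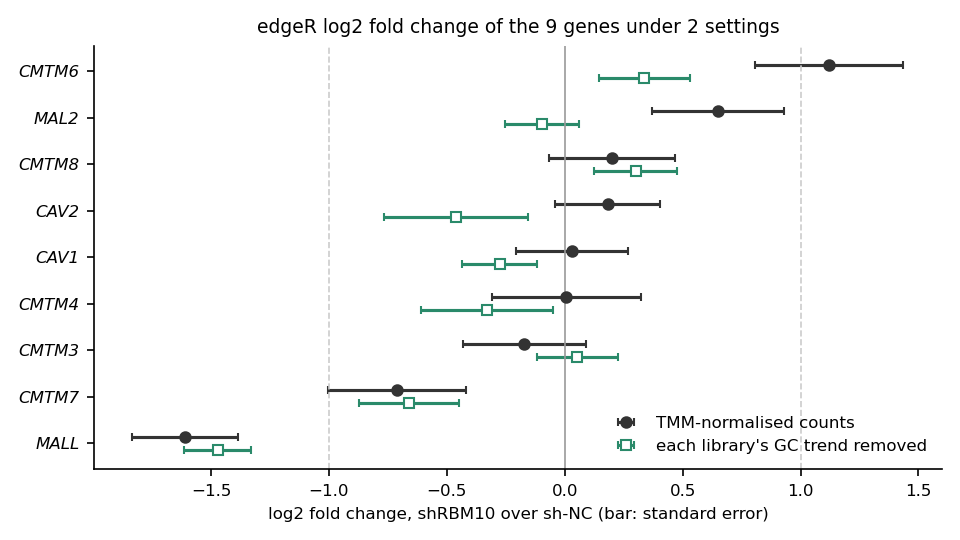
edgeR log2 fold change (horizontal axis, shRBM10 over sh-NC) of the 9 genes with its standard error, from TMM-normalised counts (black circles) and with each library's GC trend removed (open green squares); dashed lines mark a log2 fold change of 1 in either direction. MALL moved from -1.61 to -1.47 and CMTM7 from -0.71 to -0.66, while CMTM6 moved from 1.12 to 0.34 and MAL2 from 0.65 to -0.096.

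A gene was called where edgeR's Benjamini-Hochberg adjusted p was under 0.05 and its level differed by more than 1 on the log2 scale, and 0 of the 9 were called, the background being 0.0158% (2 of 12620 genes tested). Past the same fold limit with an unadjusted p under 0.05, CMTM6 was higher, in a background of 10.1% of genes, and MALL was lower, in a background of 1.53%. Without the fold limit, MAL2 and CMTM6 were higher and MALL and CMTM7 lower, where 15.7% of all genes were higher and 8.60% lower at this p. DESeq2's Wald test called 2 of the 9, MALL (adjusted p = 1.2e-06) and CMTM6 (adjusted p = 0.0365), in a background of 4.72% (573 of 12129 genes), and limma-voom called 0. Groups without overlap were found for 1 of the 9 genes upwards, CMTM6, against 13.8% of all genes, and for 2 downwards, MALL and CMTM7, against 16.2%. With the GC trend removed there was 1 upwards, CMTM8, where 1654 of 12620 genes were. Downwards there were 3, MALL, CMTM7 and CAV1, where 2210 of 12620 genes were. The contrast that chose MALL is the one counted here, and for the other 8 the counts are near the background. The 9 had a median log2 fold change of 0.031, beside 0.027 over all genes tested, and of -0.28, beside -0.045, once the GC trend was removed.

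**Figure D3:**
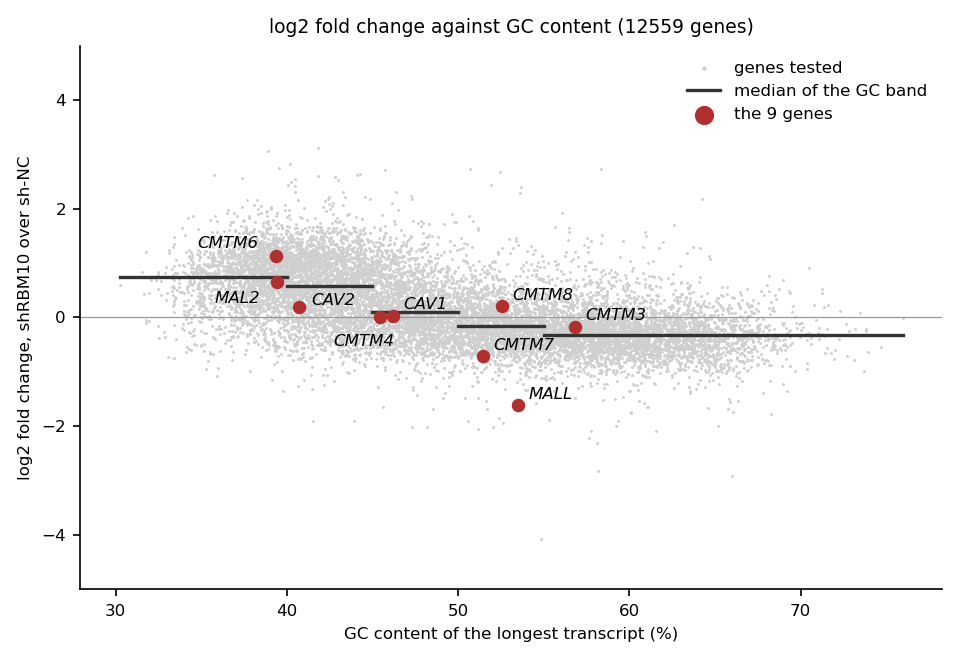
log2 fold change (vertical axis, shRBM10 over sh-NC) against the GC content of a gene's longest GENCODE transcript (horizontal axis, percent) for 12559 genes, with the median of each GC band as a black line and the 9 genes in red. The medians run from 0.74 at up to 40% GC to -0.32 above 55%; CMTM6 and MAL2 lie near the left of the cloud among genes that were mostly higher, and MALL lies below nearly all genes of its band.

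Transcript usage is a measure that the choice of MALL did not use. MALL counts were assigned to 1 transcript, NM_005434, at 98.8% in sh-NC replicate 1 and at 100% in the other 5 libraries, so no second MALL transcript could be tested. CMTM6 has 1 transcript in the table. CMTM3 and CMTM7 gave 93.6% or more and CMTM8 83.6% or more of their counts to a single transcript in every library. MAL2, CMTM4, CAV1 and CAV2 kept several transcripts after the filter. Of these genes 0 shifted usage (edgeR's diffSpliceDGE across all transcripts, adjusted p = 1 for each), where 0.0958% of the 8348 genes tested did. By its gene-level p without adjustment the count below 0.05 was also 0, and no other tool was run on transcripts.

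CAV1 had the richest set of transcripts. NM_001172896 took 66.5, 58.5 and 69.4% of CAV1 counts in the control and 60.4, 59.3 and 71.4% in the knockdown. NM_001753, which encodes full-length caveolin-1, took 25.1, 30.6 and 22.4% against 32.6, 33.5 and 20.7%. Both shares overlapped between groups. The first of these transcripts starts inside the gene, and the bases before that inner start are shown because most CAV1 counts were assigned there. They are the exon-free part of its RefSeq window, chr7:116526112-116526276 on the plus strand (GRCh38.p14), with the 2 GC boxes in capitals:

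CAV1 inner start: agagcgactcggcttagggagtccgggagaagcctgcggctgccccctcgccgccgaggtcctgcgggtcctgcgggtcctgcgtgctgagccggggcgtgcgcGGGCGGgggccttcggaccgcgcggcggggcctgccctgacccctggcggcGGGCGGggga

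This stretch is 79.4% G and C, and its full 250-base window 73.2%. For MALL, the 250 bases before the outer start are 44.4% G and C, and those before the inner start 62.8%. NM_001172897 shares its GENCODE transcript with NM_001172896 and took 4.13, 6.14 and 4.02% of CAV1 counts in the control and 2.02, 2.82 and 2.63% in the knockdown. These shares did not overlap, and the relative log2 change of -0.66 did not pass the test (edgeR's diffSpliceDGE, unadjusted p = 0.124, adjusted p = 1). How many of all transcripts have shares without overlap was not computed. As the GENCODE transcript is shared, this difference is not read as a change of isoform. For CAV2, NM_001233 and NM_001206747 had exactly equal counts in 5 libraries, with 47.4 to 48.9% each, but 87.7 and 7.65% in shRBM10 library B. Both map to the same GENCODE transcript, and transcript counts are estimates of how shared reads divide, so this split is not read as a change of isoform. CMTM4 gave its main transcript NM_181521 82.1, 85.4 and 59.7% in the control and 71.5, 73.6 and 66.4% in the knockdown.

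Levels between genes were compared per length, in the authors' TPM, for the 4 libraries whose column matches a sample title. CAV1 was the most abundant of the 9 at 150, 84.7 and 157 TPM in sh-NC, and it took 39.4 ± 1.29% of their summed TPM (SD, n = 3). MAL2 followed with 20.6 ± 1.83%, CAV2 with 13.8 ± 2.01% and MALL with 8.53 ± 0.33%. These 4 ranks were separated by more than their spread. CMTM6 took 4.18 ± 0.10%, CMTM8 3.86 ± 0.55%, CMTM4 3.43 ± 1.29% and CMTM3 3.42 ± 0.35%, and each of these differed from the next by less than the larger of their SDs. CMTM7 was lowest at 2.75 ± 0.28%, within 1 SD of CMTM4. In shRBM10 library A, the only knockdown library with a matched TPM column, MALL was at 10.5 TPM or 1.97% of the sum and CMTM6 was at 51.2 TPM or 9.63%, so that CMTM6 stood in 4th place and MALL in 8th. This library has no replicate for TPM, and it is the one in which GC-poor genes were highest.

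Beside the 9, 3 lists of related genes were described. In the first, 14 of 21 other genes of MARVEL-domain and related 4-helix vesicle proteins were tested. The median of their log2 fold changes was -0.069 (-0.19 with the GC trend removed), 5 were above 0 and 9 below, and 0 passed either threshold with the fold limit. MYADM, a raft protein of myeloid and epithelial membranes, was at 237 ± 9.91 CPM in the control and 161 ± 26.1 CPM in the knockdown (SD, n = 3 each), with a log2 fold change of -0.55 (edgeR adjusted p = 0.181) that was -0.39 with the GC trend removed. PLP2 had -0.63 on both scales (edgeR adjusted p = 0.199), and these were the 2 genes of the list with an unadjusted p under 0.05. MAL, the founding member of the MALL family, was at 224 ± 26.3 against 159 ± 26.2 CPM (SD, n = 3 each) with non-overlapping groups and a log2 fold change of -0.49 (edgeR adjusted p = 0.216), or -0.28 with the GC trend removed. MAL, MYADM and PLP2 are named after their values were seen.

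In the second list, of caveola and raft coat genes, all 12 tested genes had a log2 fold change below 0, with a median of -0.38, where 6106 of the 12620 genes tested were below 0. For 6 of the 12 every knockdown library was below every control, against 16.2% of all genes. CAVIN1 encodes the coat protein without which caveolae do not form, and it was at 313, 319 and 303 CPM in the control and 173, 182 and 232 CPM in the knockdown. All 3 knockdown libraries were lower, library C the least. The log2 fold change of CAVIN1 was -0.67 (standard error 0.22, edgeR adjusted p = 0.158). CAVIN3, a regulatory cavin, was at 8.62 ± 1.80 against 4.54 ± 1.27 CPM (SD, n = 3 each), with a log2 fold change of -0.92 (edgeR adjusted p = 0.169). CAVIN4, the muscle cavin, and the muscle caveolin CAV3 were too low to be tested, and CAVIN2 is not listed. PACSIN3 and EHD4, which bend and tubulate membranes, were the other 2 genes with an unadjusted p under 0.05, at -0.63 and -0.55, or -0.33 and -0.47 with the GC trend removed. They too are named after their values were seen.

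The caveola list is GC-rich, with a median GC content of 60.2% against 48.8% over all genes tested. Its log2 fold changes without the GC trend had a median of -0.12, and 5 of the 12 genes were above 0. CAVIN1 was then at -0.41 (edgeR adjusted p = 0.225) and CAVIN3 at -0.57 (edgeR adjusted p = 0.266). The endothelial marker sum given above moved in the same direction as this list, and its part was not tested. By edgeR 0 genes of the 3 lists were called or passed the unadjusted threshold with the fold limit, DESeq2 and limma-voom also called 0, and 9 of the 35 tested had an unadjusted p under 0.05. Of these, 2 were higher, where 15.7% of all genes were, and 7 lower, where 8.60% were.

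**Figure D4:**
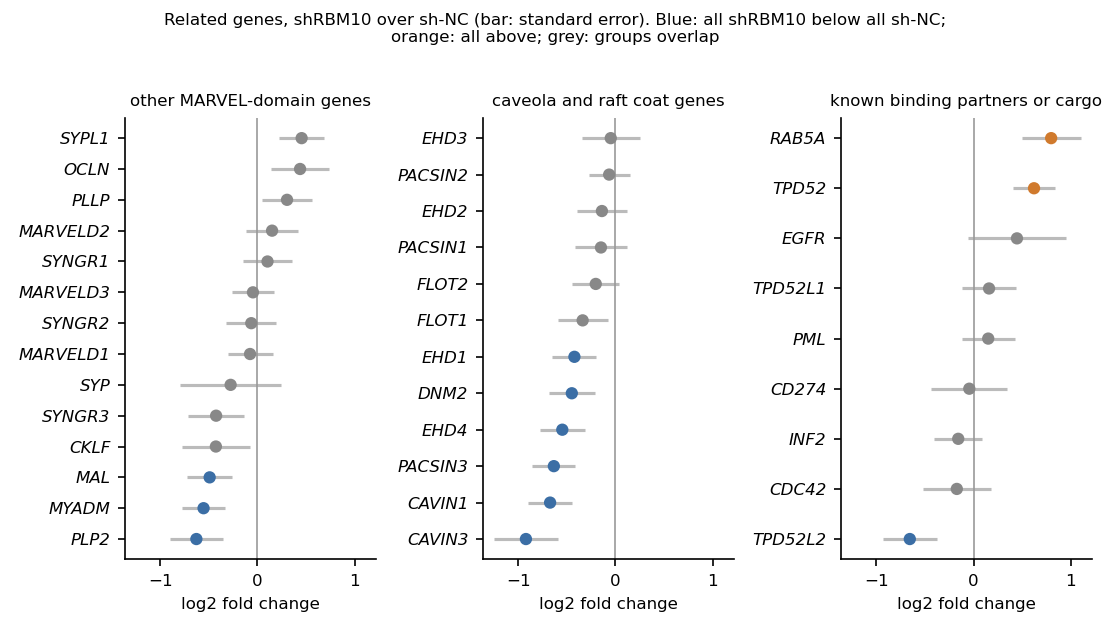
edgeR log2 fold change (horizontal axes, shRBM10 over sh-NC) with its standard error for the 35 tested genes of the 3 related lists; blue marks genes lower in all shRBM10 libraries, orange genes higher in all, and grey genes whose groups overlap. The 12 caveola and raft coat genes all lie below 0 on this scale, and the other lists lie on both sides.

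The third list holds 10 binding partners or cargo of the 9 proteins. CD274, which encodes PD-L1, the ligand held at the surface by CMTM6 and CMTM4, had only 26 to 65 counts per library. Its level was 2.43 ± 0.33 CPM in the control and 2.38 ± 1.15 CPM in the knockdown (SD, n = 3 each), with a log2 fold change of -0.043 (standard error 0.39, edgeR adjusted p = 0.949), and -0.74 with the GC trend removed (edgeR adjusted p = 0.202). With the standard error of 0.39, a modest difference of CD274 was not detectable at this depth. With the GC trend removed its standard error was 0.23 (edgeR unadjusted p = 0.0144). RAB5A, the GTPase of early endosomes with which CMTM7 and CMTM3 have been linked, was at 16.9 ± 4.88 against 29.4 ± 5.68 CPM (SD, n = 3 each), a log2 fold change of 0.80 (edgeR adjusted p = 0.175) that was 0.23 with the GC trend removed. TPD52, a vesicle protein that binds MAL2, was at 0.62 (edgeR adjusted p = 0.165) and -0.020 with the GC trend removed, while its relative TPD52L2 was at -0.65 (edgeR adjusted p = 0.194), or -0.46 with that trend removed. RAB5A, TPD52 and TPD52L2 were the 3 genes of this list with an unadjusted p under 0.05 before removal of the GC trend. They are named after their values were seen. With the trend removed their unadjusted edgeR p was 0.276, 0.926 and 0.0794. EGFR was at 671, 141 and 717 CPM in the control, with sh-NC replicate 2 far below the other libraries, and at 811, 696 and 576 CPM in the knockdown. Its log2 fold change was 0.45 (standard error 0.50, edgeR adjusted p = 0.570), and 0.27 with the GC trend removed. The median of the list was 0.15, and -0.020 with the GC trend removed.

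The 5 genes most like MALL in pattern were found among 11070 genes with a mean count of at least 50, by the root mean square difference of centred log2 CPM over the 6 libraries. They were CACNG6, a calcium channel subunit (difference 0.14), FOSL1, the AP-1 subunit Fra-1 (0.15), ARNT2, a transcription factor of the bHLH-PAS family (0.18), CDC25A, a cell cycle phosphatase (0.19), and IL11, a cytokine (0.20). FOSL1 was at 80.7, 86.2 and 77.3 CPM in the control and 29.8, 28.5 and 37.1 CPM in the knockdown. IL11 was at 69.5, 80.1 and 68.1 CPM against 26.3, 22.6 and 35.8 CPM. Like MALL, all 5 were clearly separated between groups, had fold changes between -1.36 and -2.01 on the log2 scale and were not called by edgeR (adjusted p of 0.0892 to 0.1). They were picked for this pattern, so their values are a description.

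**Figure D5:**
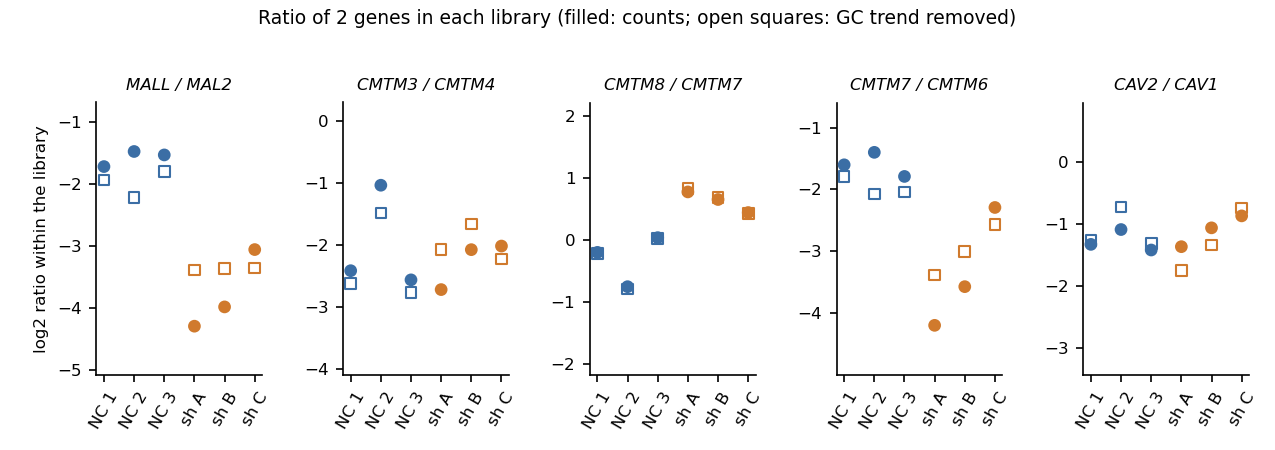
log2 ratio of the counts of 2 genes within each library (vertical axes, each spanning the same number of log2 units; filled circles) and of their levels with the GC trend removed (open squares), for MALL over MAL2 and for the 4 pairs of chromosomal neighbours, sh-NC in blue and shRBM10 in orange. The ratio of MALL to MAL2 and that of CMTM7 to CMTM6 were lower in every shRBM10 library, CMTM8 over CMTM7 was higher in every one, and the other ratios overlapped. MALL was chosen for its fall in these libraries, so its ratio is a description.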

How the data were processed

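RNA sequencing of 6 PC9 libraries, 3 sh-NC and 3 shRBM10, was analysed from the deposited tables of 16306 genes and 76563 RefSeq transcripts. The authors deposited estimated counts per gene and per transcript, with fractions of reads that fit several features, and TPM, which divides by transcript length and library size. The submitters' processing notes name the build hg38, and the aligner, counter and annotation are not given in the sources used here. The labels describe poly-A selection and 2 library kits without assigning them.

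Estimated counts were rounded to whole numbers, filtered with filterByExpr (12620 genes), normalised by TMM and tested with the quasi-likelihood method of edgeR 4.0.16 (limma 3.58.1, R 4.3.3) over all genes, without covariates. The code was tested on simulated data before use. Standard errors are the fold change divided by the square root of F. The GC trend is a loess curve (span 0.3) of log2 level on GC content per library, entered as an offset, with GC content found for 99.5% of the genes. Alternatives were DESeq2 1.42.0, limma-voom, 3 other normalisations, 2 other filters and leaving out each library. Transcript usage was tested with diffSpliceDGE. Intervals and SDs cover only these libraries. Coordinates are from GENCODE 29. Promoter sequences are from RefSeq on GRCh38.p14 and were looked at for 8 of the 9 genes, MAL2 being left out.

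Named are the 9 genes, RBM10, CD274, the cavins, related genes past the unadjusted threshold with a mean count of at least 50 (there were 0), and the 5 genes most like MALL. MAL, MYADM, PLP2, PACSIN3, EHD4, RAB5A, TPD52, TPD52L2 and EGFR fall outside this rule and were named after their values were seen. The members, lists and tests were chosen with earlier results of these data known. Left out were 14 per-library columns of the gene table and 18 of the transcript table (FPKM, the authors' normalised counts and the remaining TPM), and 8 columns of group means in each.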

Additional observations from a re-analysis of the deposited data

How the results depend on the processing

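Of the 9 genes, 0 were called in the reported analysis, 1 (MALL) without a filter on low counts, with the GC trend removed and with GC and length trends removed, and 2 (MALL and CMTM6) by DESeq2. Leaving out single libraries gave 0 to 1 called, the 1 being MALL without sh-NC replicate 2 (adjusted p = 0.0472). The adjusted p of MALL ranged from 1.2e-06 to 0.452 over 15 alternatives, and its log2 fold change from -1.72 to -1.41. The number past the unadjusted threshold was 1 with the GC trend removed and with both trends removed, 4 without a fold limit and 1 to 2 with single libraries left out, CMTM6 being lost without shRBM10 library A (log2 fold change 0.82). Non-overlapping groups were counted for 3 to 6 genes when a library was dropped, which leaves 2 values in a group. The 6 arose once sh-NC replicate 2 and once library C was dropped. Over all genes, the groups did not overlap for 5986 of 12795 without sh-NC replicate 2 and for 8088 of 12743 without library C. Of the related genes, 1 (SYPL2, mean count 1.83) passed without a filter, and 0 to 1 (CAVIN3) with single libraries left out. No member shifted transcript usage in any of the 7 alternatives. By CPM per kilobase CAV1 took 36.1% of the summed level.

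Of 135 values of a member's log2 fold change under an alternative, 16 had the opposite sign to the reported one. With the GC trend removed they were -0.096 for MAL2, 0.054 for CMTM3, -0.33 for CMTM4, -0.28 for CAV1 and -0.46 for CAV2. With GC and length trends removed they were 0.18 for CMTM3, -0.46 for CMTM4, -0.23 for CAV1 and -0.42 for CAV2. CMTM4 was at -0.020 with edgeR's RLE factors and at -0.019 with DESeq2, and leaving out single libraries gave -0.37 to 0.24 for CMTM4 and -0.10 to 0.13 for CAV1. MALL and CMTM7 were below 0, and CMTM6 and CMTM8 above 0, in all 15 alternatives. The cause of these changes was not tested. Over all genes edgeR called 2, against 31 without a filter, 573 by DESeq2, 5 and 96 with the GC trend and both trends removed, 0 by library size only and 0 to 23 with single libraries left out. The 1465 genes past the unadjusted threshold were 1272 higher and 193 lower, against 270 higher and 315 lower with the GC trend removed and 277 and 292 with both removed. Scaling by library size only moved the median log2 fold change of all genes from 0.027 to 0.16. No paired analysis was possible because only 1 of the shRBM10 columns carries a replicate number. The standard errors of the 9 genes ran from 0.22 for CAV2 and MALL to 0.32 for CMTM4, which limits the differences that could be detected with 3 libraries per group.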
